A study of Mus musculus with 4 samples.

Results

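The gene expression of mouse macrophages given lipopolysaccharide (LPS) together with 2 inhibitors, zVAD and Nec-1, was compared with that of macrophages given LPS alone. Both conditions were measured on 1 Affymetrix array each, out of 4 arrays in the study. Of 19938 genes with a probe carrying 1 gene symbol, 12203 had a signal at or above the median of all deposited values (log2 6.47) on at least 1 of the 4 arrays, and these were compared. Each gene was read from 1 probe, the one with the highest mean signal over the 4 arrays. A difference of 2-fold (1 log2 unit) was used as a mark of size, since 1 array per condition allows no test, p-value or SD.

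Marrow of female BALB/c mice was differentiated into macrophages in medium conditioned by L929 cells, which supplies the growth factor M-CSF. The LPS array held cells given LPS at 10 ng/ml, and the other held cells given the same LPS with zVAD at 50 µM and Nec-1 at 30 µM. The remaining arrays held untreated cells (control) and cells given LPS with zVAD. The labels name no treatment time, and nothing in them says that the arrays stand for separate cultures or animals. Cells given only one of the inhibitors without LPS, or Nec-1 with LPS but without zVAD, were not analysed here, so an effect of Nec-1 in the absence of zVAD was not measured.

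LPS is a component of the bacterial outer membrane that activates macrophages through the receptor TLR4, which signals to NF-kB, MAP kinases and interferon regulatory factors. zVAD blocks caspases, including caspase-8, which otherwise restrains the kinases RIPK1 and RIPK3; when caspase-8 is blocked, RIPK1 and RIPK3 can trigger necroptosis, a lytic cell death carried out by MLKL. Nec-1 (necrostatin-1) inhibits the kinase activity of RIPK1. The comparison asks how close the expression of cells with both enzymes inhibited lay to that of cells with LPS alone.

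Most genes were close to level: the median log2 difference (LPS with both inhibitors minus LPS) over the 12203 genes was -0.02, and 90% of genes lay between -0.45 and 0.38. The differences were not evenly split. At 2-fold, 9 genes (0.0738% of those compared) were higher and 66 (0.541%) were lower with both inhibitors. At 1.5-fold, 90 genes (0.738%) were higher and 336 (2.75%) lower. The extremes were Gem at 2.30 and Serpinb2 at -2.40. When the genes were split into 4 equal sets by signal, the dimmest set had a median of 0.13 and the others, in rising order, -0.05, -0.08 and -0.04, so small positive differences were commoner among dim genes.

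**Figure D1:**
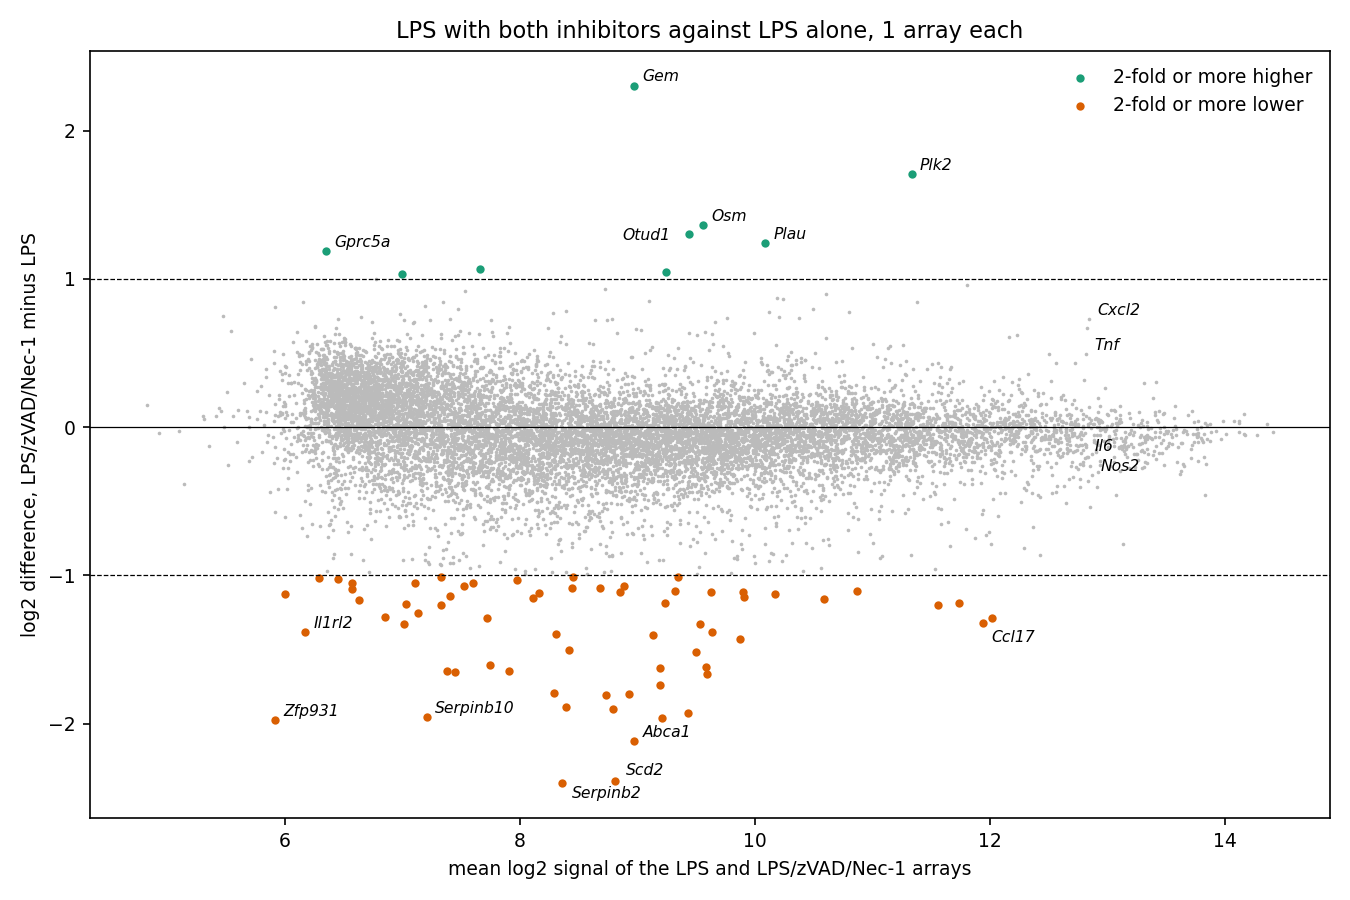
Each point is 1 of the 12203 genes; the x axis is the mean log2 signal of both arrays and the y axis the log2 difference, LPS with both inhibitors minus LPS. Dashed lines mark 2-fold; 9 green genes lie at or over the upper line and 66 orange genes at or under the lower one, while Il6 and Nos2 lie near 0 at high signal.

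Macrophage identity was checked first. Of the 10 core macrophage markers, 9 were measured, and their log2 signals lay between 10.19 and 14.05 on every array. Csf1r, the M-CSF receptor, was at 12.14 with LPS and 12.01 with both inhibitors, the surface receptor Adgre1 at 13.31 and 13.26, and Lyz2 (lysozyme M) at 14.01 and 13.93. Markers of other cells were not all absent. At or over the filter level were 13 of 15 neutrophil markers with LPS and 13 with both inhibitors, 6 and 7 of 12 dendritic cell markers, 2 and 4 of 14 T and NK cell markers, and 1 and 2 of 10 B cell markers. Stromal, endothelial and fibroblast markers gave 11 and 11 of 16. Erythroid markers gave 2 and 4 of 6, and mast cell and basophil markers 2 and 2 of 11. Cd79b, part of the B cell receptor, read 8.33 with LPS and 8.01 with both inhibitors, and the T cell receptor gene Cd3e 6.20 and 6.77, while Cd3d, Cd3g, Cd79a and Ms4a1 were under the level on every array. The part of other cells in the results was not tested.

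The 9 genes that were higher with both inhibitors were Gem, Plk2, Osm, Otud1, Plau, Gprc5a, Egr1, Hbegf and Ifnb1. Gem, a small GTPase that is induced quickly by many stimuli, had a log2 signal of 6.21 in control, 7.82 under LPS, 12.95 under LPS/zVAD and 10.13 with both inhibitors, so it was 4.93-fold higher with both inhibitors than with LPS. Plk2, a stress-responsive polo-like kinase, read 9.87, 10.48, 13.24 and 12.19 in the same order and was 3.26-fold higher. In both genes the array with both inhibitors lay between the LPS and the LPS/zVAD arrays.

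Secreted signals followed. Osm, oncostatin M, a cytokine of the IL-6 family, read 7.83, 8.88, 12.41 and 10.24 on the control, LPS, LPS/zVAD and both-inhibitor arrays, a 2.57-fold higher signal than with LPS. Hbegf, a membrane-anchored EGF receptor ligand, read 7.93, 8.72, 12.17 and 9.77 and was 2.06-fold higher. Ifnb1, interferon beta, read 5.42, 6.48, 11.62 and 7.51 and was 2.04-fold higher, with its LPS signal only just over the filter level.

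Plau, the urokinase plasminogen activator, differed from these in its control level. It read 12.78 in control, 9.46 under LPS, 13.14 under LPS/zVAD and 10.71 with both inhibitors, so that the LPS array was the lowest of the 4 and the array with both inhibitors was 2.37-fold above it. Otud1, a deubiquitinase, was 2.46-fold higher (8.79 with LPS, 10.09 with both inhibitors). Egr1, a zinc finger early-response transcription factor, was 2.10-fold higher (7.13 and 8.20).

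Gprc5a, an orphan receptor induced by retinoic acid, had an LPS signal of 5.76, under the filter level, and 6.94 with both inhibitors. Counted from the filter level it was at least 1.39-fold higher. All 9 genes had their highest signal on the LPS/zVAD array. Just outside the 2-fold mark lay Prrg4 (0.9998 on the log2 scale), the vasoconstrictor peptide gene Edn1 (0.96) and the phosphatase gene Dusp10 (0.94). The LPS signal of Prrg4 (6.27) was under the filter level, so its difference counted from that level is smaller.

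**Figure D2:**
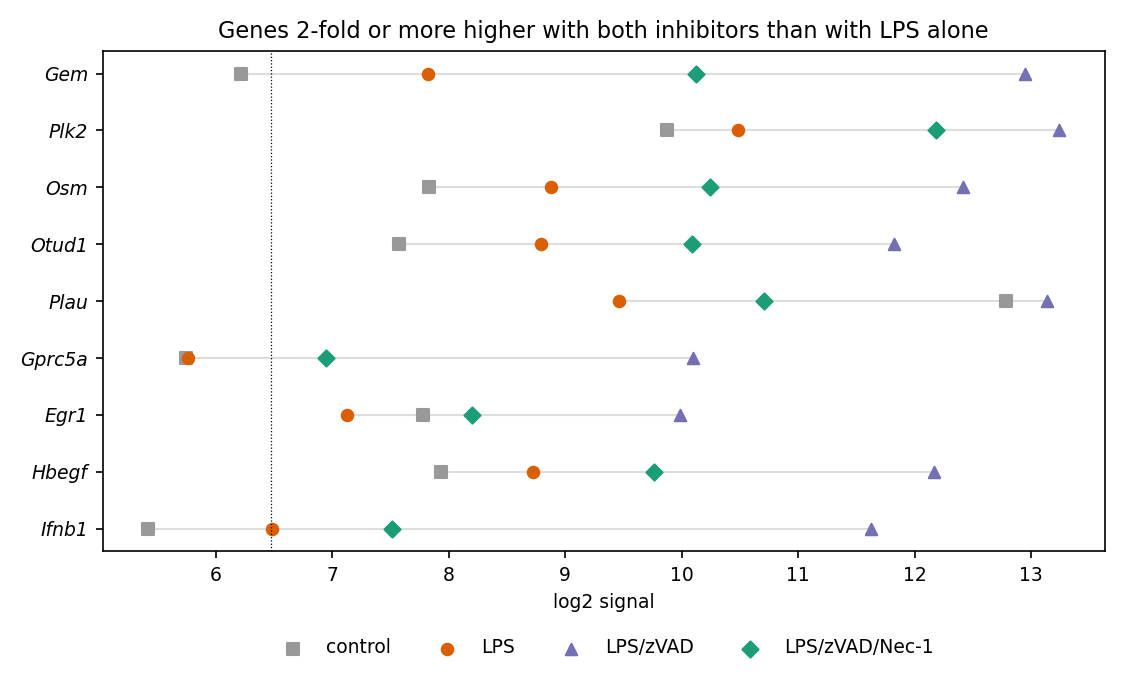
Log2 signal of the 9 genes that were 2-fold or more higher with both inhibitors, 1 point per array and condition; the dotted line is the filter level of 6.47. For each gene the green diamond (LPS/zVAD/Nec-1) lies to the right of the orange circle (LPS) and to the left of the purple triangle (LPS/zVAD).

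Promoter sequences were matched by symbol to RefSeq (GRCm38.p6, 250 bases before the gene start), where 3 of the 9 higher and 54 of the 66 lower genes had an entry. Plk2 and Ifnb1 are shown because each is higher and holds a motif of factors that LPS activates. In Plk2 the capitals mark the cyclic AMP response element TGACGTCA, 62 bases before the start, on chr13:110394794-110395043, plus strand. In Ifnb1 they mark a match to the NF-kB consensus (kappaB), 116 bases before the start, on chr4:88522795-88523044, minus strand.
Plk2: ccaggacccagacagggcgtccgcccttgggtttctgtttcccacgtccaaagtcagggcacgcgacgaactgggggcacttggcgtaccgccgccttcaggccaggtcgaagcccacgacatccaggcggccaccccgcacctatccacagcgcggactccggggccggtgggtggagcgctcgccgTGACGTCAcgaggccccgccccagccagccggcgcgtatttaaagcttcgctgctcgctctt
Ifnb1: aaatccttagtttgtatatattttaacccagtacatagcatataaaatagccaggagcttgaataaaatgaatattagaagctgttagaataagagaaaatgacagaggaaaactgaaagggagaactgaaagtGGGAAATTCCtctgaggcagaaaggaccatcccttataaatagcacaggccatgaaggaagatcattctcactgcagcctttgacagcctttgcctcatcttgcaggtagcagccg
Searched on both strands, TGACGTCA occurred in 1.55% of all 32851 promoter entries of that length and the kappaB consensus in 7.25%. Among the 9782 genes past the filter with an entry the shares were 2.94% and 10.7%. A match of letters is a description of the sequence and no measure of binding.

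The early-response genes as a group were spread widely. Of the 42 listed immediate early, AP-1, EGR and MAP kinase feedback genes, all past the filter, 3 were 2-fold or more higher (Gem, Plk2 and Egr1) and 1 was lower. Over all genes 0.0738% were higher and 0.541% lower at 2-fold. At 1.5-fold, 8 were higher and 3 lower, against 0.738% and 2.75% of all genes, and the list's median difference was 0.09. Csrnp1, a nuclear protein induced by AXIN1, read 9.81 with LPS and 10.67 with both inhibitors, and the G protein regulator Rgs2 read 10.10 and 10.90. Fosl2, an AP-1 subunit, went the other way: it read 9.17 in control, 9.84 under LPS, 9.15 under LPS/zVAD and 8.43 with both inhibitors, 2.65-fold lower than with LPS and the lowest of the 4 arrays. Dusp2 (-0.64) and Nr4a1 (-0.66) were also lower at 1.5-fold.

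The lower genes included members of the IL-36 branch of the IL-1 family. Il1f6 (IL-36 alpha) read 5.20 in control, 10.06 under LPS, 7.65 under LPS/zVAD and 8.32 with both inhibitors, 3.33-fold lower than with LPS. Il1f9 (IL-36 gamma) read 5.36, 9.17, 8.64 and 7.67 and was 2.84-fold lower. Their receptor gene Il1rl2 was dim, at 6.86 with LPS and 5.48 with both inhibitors, which counted from the filter level is at least 1.31-fold lower.

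The shared receptor subunit Il1rap was at 9.69 with LPS and 9.68 with both inhibitors. The other IL-1 family cytokines were also close to the LPS level: Il1a read 13.96 and 13.72, Il1b 13.77 and 13.52, and Il18 11.13 and 10.86. Among those IL-1 family genes, then, the IL-36 ligands Il1f6 and Il1f9 were 2-fold or more lower with both signals over the filter level. The IL-36 genes were grouped after their values had been seen.

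The CXC chemokine genes next to one another on chromosome 5 differed in opposite directions. In gene order these are Ppbp, Pf4, Cxcl3, Cxcl1 and Cxcl2, with Cxcl5 before Ppbp and Cxcl15 after Cxcl3. Ppbp, whose product is processed to a neutrophil attractant, read 7.998 in control, 9.83 under LPS, 8.17 under LPS/zVAD and 8.03 with both inhibitors, so that it was 3.48-fold lower than with LPS and near the control level. Pf4, platelet factor 4, read 12.29, 12.70, 12.22 and 12.03 and was 1.60-fold lower. Cxcl3 read 6.06, 10.42, 9.40 and 8.76 and was 3.16-fold lower.

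The neighbouring neutrophil attractants were higher instead. Cxcl1 read 8.38 in control, 10.00 under LPS, 13.18 under LPS/zVAD and 10.74 with both inhibitors, 1.67-fold higher than with LPS. Cxcl2 read 10.01, 12.48, 14.01 and 13.22 and was 1.66-fold higher. The products of Cxcl1, Cxcl2 and Cxcl3 all act on the receptor CXCR2, and the cluster was assembled after its values had been seen.

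**Figure D3:**
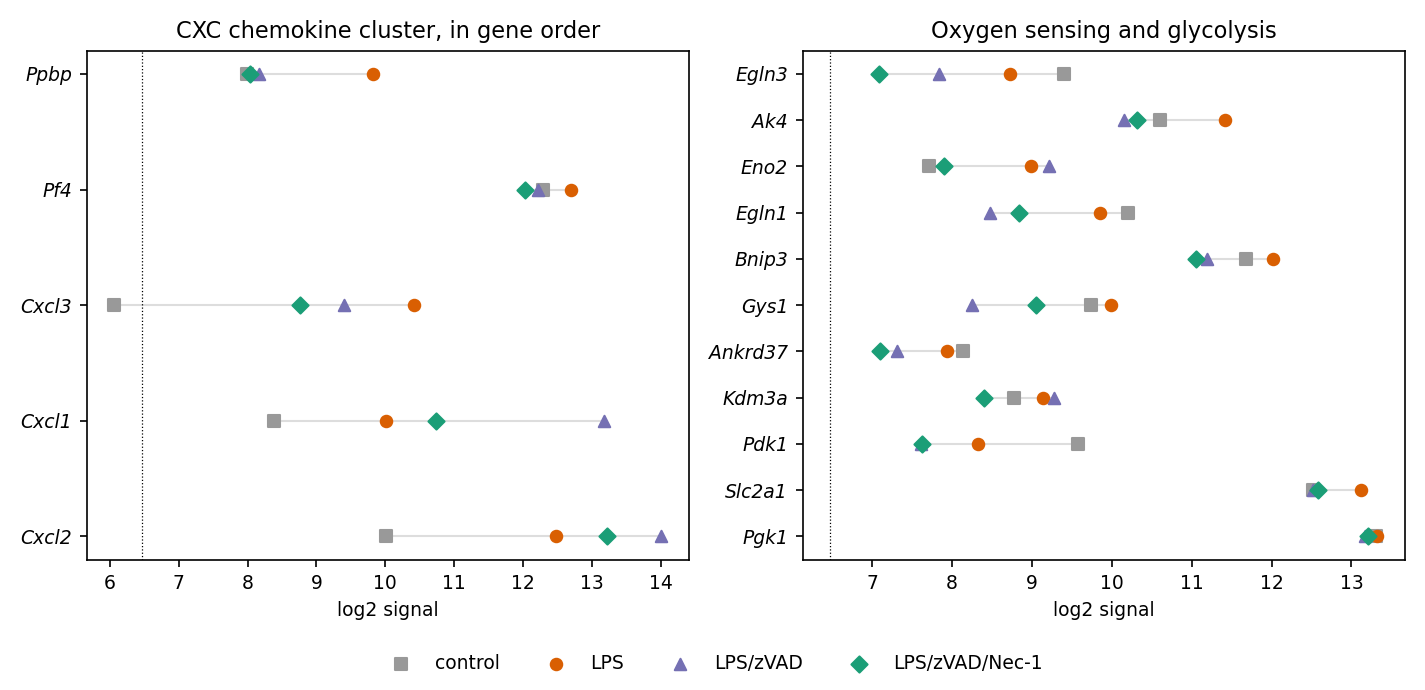
Log2 signal on each of the 4 arrays for CXC chemokine genes in their order on chromosome 5 (left) and for genes of oxygen sensing and glycolysis (right); the dotted line is the filter level. The green diamond (both inhibitors) lies left of the orange circle (LPS) for Ppbp, Pf4 and Cxcl3 and right of it for Cxcl1 and Cxcl2. It lies left for each gene in the right panel, but those genes were picked after their values were seen. The highest member of the hypoxia and glycolysis list, Hk3 (log2 difference 0.24), is not drawn.

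The promoters of these neighbours are shown because genes that differ in opposite directions carry the same element. Capitals mark the match to the kappaB consensus, which is the same run of letters in Cxcl1 (71 bases before the start, chr5:90890995-90891244), Cxcl2 (97 bases, chr5:90903649-90903898) and Cxcl3 (73 bases, chr5:90785851-90786100). Ppbp (chr5:90768268-90768517) had no match in the window. All are on the plus strand of GRCm38.p6.
Cxcl1: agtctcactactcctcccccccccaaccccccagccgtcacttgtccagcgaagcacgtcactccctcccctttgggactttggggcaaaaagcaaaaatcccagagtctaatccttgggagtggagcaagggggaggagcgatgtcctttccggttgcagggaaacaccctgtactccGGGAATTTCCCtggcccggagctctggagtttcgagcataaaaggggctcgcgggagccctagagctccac
Cxcl2: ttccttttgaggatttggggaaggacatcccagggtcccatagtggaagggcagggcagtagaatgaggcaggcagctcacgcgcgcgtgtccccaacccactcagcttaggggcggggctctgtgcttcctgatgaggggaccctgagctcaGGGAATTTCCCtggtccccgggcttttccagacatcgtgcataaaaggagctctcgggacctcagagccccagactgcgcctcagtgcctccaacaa
Cxcl3: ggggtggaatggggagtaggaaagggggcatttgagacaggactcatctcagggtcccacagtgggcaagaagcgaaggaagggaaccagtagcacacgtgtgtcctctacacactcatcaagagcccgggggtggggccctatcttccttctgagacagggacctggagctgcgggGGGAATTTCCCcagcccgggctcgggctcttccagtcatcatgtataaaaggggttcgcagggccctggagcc
Ppbp: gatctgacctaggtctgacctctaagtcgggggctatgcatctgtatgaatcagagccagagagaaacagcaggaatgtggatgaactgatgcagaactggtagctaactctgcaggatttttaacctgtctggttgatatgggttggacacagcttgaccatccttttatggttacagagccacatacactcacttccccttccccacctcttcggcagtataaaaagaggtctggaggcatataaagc
In each of the 3 marked promoters the run holds 2 overlapping matches, 1 on each strand. Over the lower genes, 10 of the 54 with an entry (18.5%) held the kappaB consensus, beside 10.7% of the 9782 genes past the filter that had an entry.

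Of the 22 listed chemokines past the filter, 2 were 2-fold or more lower (Cxcl3 and Ccl17) and 0 higher, beside 0.541% and 0.0738% of all genes. At 1.5-fold 5 were lower and 3 higher, beside 2.75% and 0.738%, and the median difference was -0.05. Ccl17, a ligand of CCR4, read 6.02 in control, 12.61 under LPS, 11.00 under LPS/zVAD and 11.28 with both inhibitors, 2.50-fold lower than with LPS. Ccl22, the other CCR4 ligand, was 0.69 lower on the log2 scale at 12.14 and 11.46. Ccl5 (14.19 and 14.15) and Cxcl10 (13.86 and 13.88) were nearly level.

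Of the 20 chemokine and chemoattractant receptors past the filter, 1 was 2-fold lower, beside 0.541% of all genes. At 1.5-fold 5 were lower and 1 higher, beside 2.75% and 0.738%. Ccr3, the eotaxin receptor, read 7.75 with LPS and 6.50 with both inhibitors. Cmklr1, the chemerin receptor, which the list does not hold, read 7.74 in control, 10.00 under LPS, 7.79 under LPS/zVAD and 8.38 with both inhibitors and was 3.08-fold lower than with LPS. Ccr2, the receptor of CCL2, was lower by 0.95 on the log2 scale at 11.04 and 10.09, and Cxcr4 was higher by 0.92 at 7.08 and 7.99.

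Lipid handling held the largest negative differences after Serpinb2. Scd2, a stearoyl-CoA desaturase that makes monounsaturated fatty acids, read 12.28 in control, 10.01 under LPS, 8.77 under LPS/zVAD and 7.62 with both inhibitors, 5.24-fold lower than with LPS and the lowest of the 4 arrays. Abca1, which exports cholesterol to apolipoprotein A-I, read 9.82, 10.03, 7.93 and 7.92 and was 4.33-fold lower. Control and LPS lay together for Abca1, and so did both arrays with zVAD.

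The rest of that pathway moved little. Of the 23 listed fatty acid and lipid handling genes past the filter, Scd2 and Abca1 were the only ones at 2-fold. Over all genes 0.0738% were higher and 0.541% lower at that size. At 1.5-fold 3 were lower, beside 2.75% of all genes, and the median difference was -0.16. Abcg1, a partner of Abca1 in cholesterol export, read 11.41 with LPS and 11.15 with both inhibitors, and Nr1h3 (LXR alpha), a transcription factor known to induce Abca1, read 9.26 and 8.85. Sterol synthesis had 0 of 20 genes at 2-fold and a median of -0.08. In that list Insig1, which restrains sterol synthesis, was higher by 0.77 at 10.42 and 11.19.

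Proteases and their inhibitors differed in both directions. Of 23 plasminogen, coagulation and matrix enzyme genes past the filter, 5 were 2-fold or more lower and 1, Plau, was higher; at 1.5-fold 8 were lower and 1 higher, with a median of -0.22. Over all genes, 0.541% were lower and 0.0738% higher at 2-fold, and 2.75% and 0.738% at 1.5-fold. Serpinb2 (plasminogen activator inhibitor 2), which inhibits the urokinase encoded by Plau, read 5.92 in control, 9.55 under LPS, 8.18 under LPS/zVAD and 7.16 with both inhibitors. It was 5.27-fold lower than with LPS, the lowest ratio of all 12203 genes. The activator and this inhibitor therefore differed in opposite directions.

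F10, coagulation factor X, read 10.59 with LPS and 9.16 with both inhibitors. Timp1, an inhibitor of metalloproteinases, read 10.33 and 8.95. Mmp9, a gelatinase, read 9.01 and 7.61, and Mmp8, the neutrophil collagenase, 10.48 and 9.34. The collagen cross-linking oxidase Lox was lower as well, at 8.27 and 6.62.

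Serpinb10 lies beside Serpinb2 on chromosome 1, followed by Serpinb8. Serpinb10 read 9.54 in control, 8.18 under LPS, 8.77 under LPS/zVAD and 6.23 with both inhibitors, which counted from the filter level is at least 3.28-fold lower than with LPS. Serpinb8 read 8.14 with LPS and 7.45 with both inhibitors, 1.62-fold lower. The clade B serpins were put together as a family after the values had been seen, with 24 measured and 8 past the filter. At 1.5-fold 4 of the 8, Serpinb2 and Serpinb10 among them, were lower and 0 higher, beside 2.75% and 0.738% of all genes. Serpinb6a read 10.56 with LPS and 10.58 with both inhibitors, and Serpinb9 10.37 and 10.24.

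**Figure D4:**
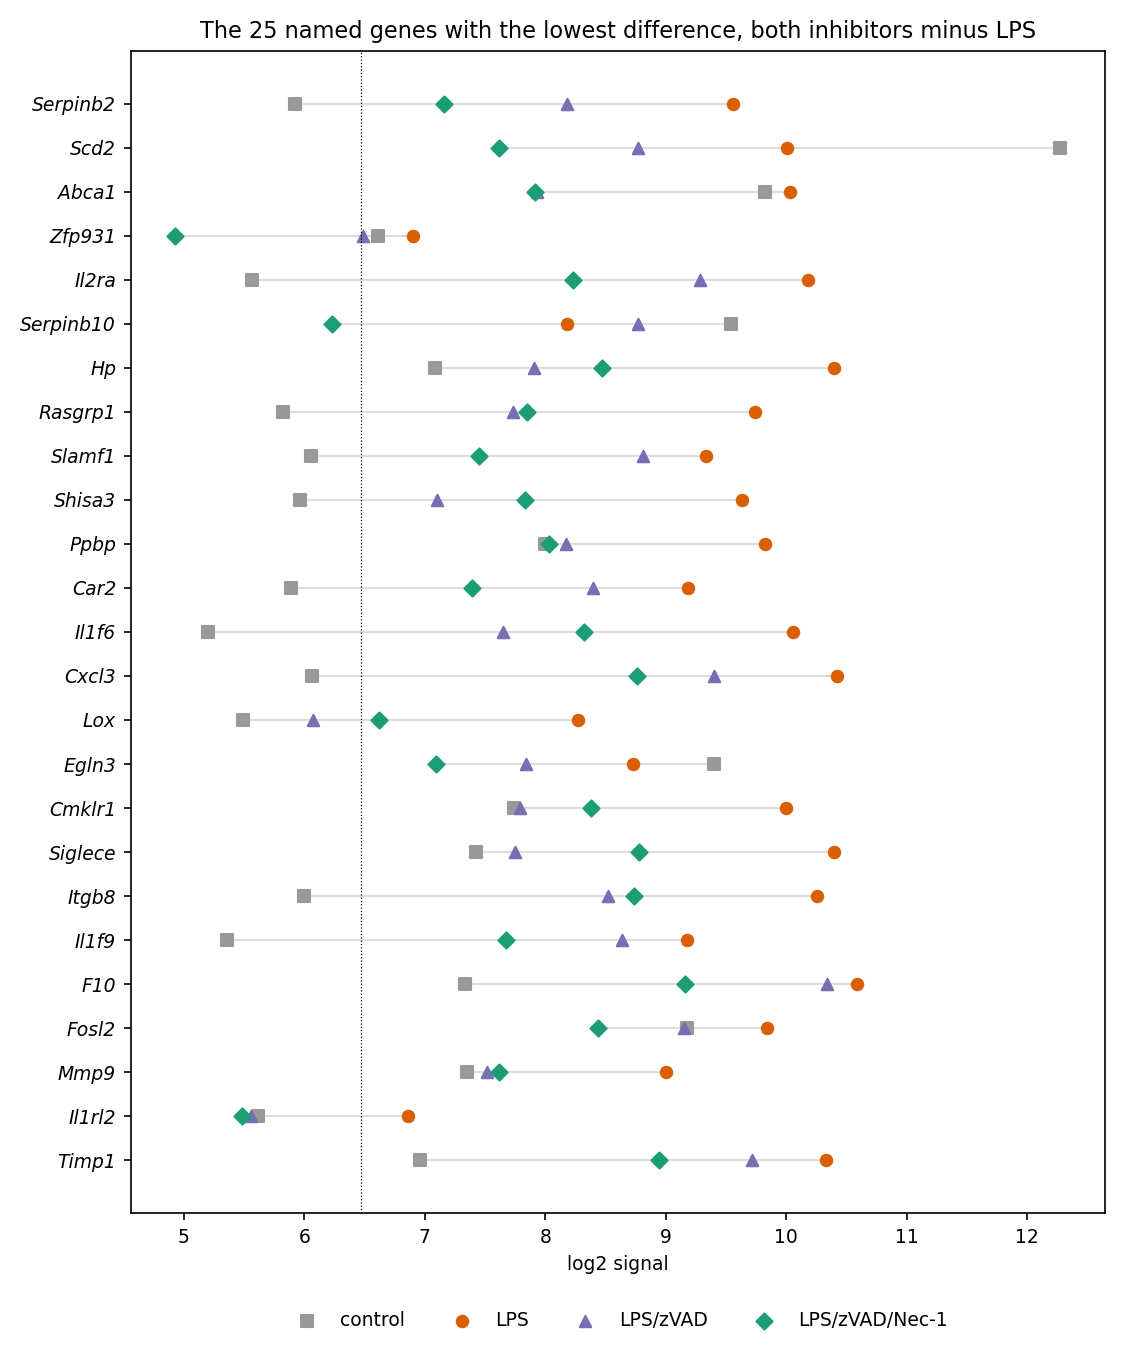
Log2 signal on each of the 4 arrays for the 25 named genes with the lowest log2 difference, from Serpinb2 at -2.40 down to Timp1 at -1.38; the dotted line is the filter level of 6.47. For each gene the green diamond (both inhibitors) lies left of the orange circle (LPS); for Scd2, Serpinb10, Zfp931, Egln3 and Fosl2 it is the lowest of the 4 by a clear distance.

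A list of surface receptors and the Tmem176 pair, written with earlier results of these data known, held many lower genes. Its counts describe the chosen members and not macrophage surface receptors in general. Of the 24 C-type lectins, Siglecs, Trem and Pir-type receptors and Tmem176 genes past the filter, 2 were 2-fold or more lower. At 1.5-fold 11 were lower, and 0 were higher at either size. Among all genes 0.541% were lower at 2-fold and 2.75% at 1.5-fold, and 0.0738% and 0.738% were higher. Over the 26 measured the median difference was -0.48. It lay between -0.55 and -0.45 under the other scalings tried, which use the same arrays, so this median kept its sign.

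Siglece, an inhibitory receptor for sialic acids, read 7.42 in control, 10.39 under LPS, 7.75 under LPS/zVAD and 8.77 with both inhibitors, 3.07-fold lower than with LPS. Tmem176a, which encodes an intracellular membrane channel protein, read 7.29, 10.45, 7.95 and 9.34, and its neighbour Tmem176b 8.39, 11.03, 8.52 and 10.24. The lectin genes Clec4a3 and Clec4a1 were lower by 0.97 and 0.87 on the log2 scale, and Pirb, an inhibitory receptor for MHC class I, by 0.86. For these genes except Clec4a3 the order of the arrays was LPS highest, then both inhibitors, then LPS/zVAD and control; for Clec4a3 control (8.78) and LPS/zVAD (8.67) changed places.

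Not all surface receptors took part. Clec7a (dectin-1, a receptor for fungal glucans) read 10.94 with LPS and 10.86 with both inhibitors, Clec2d 12.01 and 11.88, and Clec5a 11.47 and 11.70. Of the 31 macrophage identity genes past the filter, 1, the integrin gene Itgax (8.69 and 7.54), was 2-fold lower, beside 0.541% of all genes. Cx3cr1, the fractalkine receptor, was at 10.46 and 10.71.

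Genes often linked to lymphocytes, picked out here after their values had been seen, were among the lower ones. Il2ra, the IL-2 receptor alpha chain, read 5.57 in control, 10.19 under LPS, 9.28 under LPS/zVAD and 8.23 with both inhibitors, 3.89-fold lower than with LPS. Rasgrp1, an exchange factor for Ras, read 5.82, 9.74, 7.73 and 7.84 and was 3.73-fold lower. Slamf1 (CD150) read 6.05, 9.33, 8.81 and 7.45 and was 3.70-fold lower. Of the 14 T and NK cell markers measured, 4 passed the filter, with Il7r the brightest (11.15 and 11.19). None of these 4 was lower with both inhibitors, but apart from Il7r they were dim. Cd3e read 6.20 with LPS and 6.77 with both inhibitors, Cd4 6.24 and 6.50, and Prf1 6.59 and 6.66. With LPS, Cd3e and Cd4 were under the filter level and Prf1 just over it, so a fall could hardly have shown. Whether the share of lymphocytes differed was not tested.

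Hp, haptoglobin, an acute phase protein that binds haemoglobin, read 7.08, 10.39, 7.91 and 8.47 on the control, LPS, LPS/zVAD and both-inhibitor arrays and was 3.80-fold lower than with LPS. Of the 12 complement and acute phase genes past the filter it was the only one at 2-fold, beside 0.541% of all genes lower. At 1.5-fold 5 were lower, beside 2.75% of all genes. Cp, ceruloplasmin, a copper-carrying ferroxidase, was at 12.33 with LPS and 11.60 with both inhibitors. Ptges, the inducible prostaglandin E synthase, was at 12.33 and 11.14, and the arginase genes Arg1 (7.93 and 6.73) and Arg2 (11.17 and 10.01) were each more than 2-fold lower. Ptgs2, cyclooxygenase 2, which acts upstream of Ptges, was level at 13.36 and 13.44.

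Neutrophil markers moved with the LPS array. Of the 15 measured, 13 passed the filter, and 2 of these, Mmp9 and Mmp8, were 2-fold lower with both inhibitors (0.541% of all genes). At 1.5-fold 5 were lower and 0 higher, beside 2.75% and 0.738% of all genes. Over the 15 markers the median was -0.39. The log2 of their summed signal was 12.44 in control, 14.01 under LPS, 13.24 under LPS/zVAD and 13.33 with both inhibitors. The granule genes Mpo (8.70 and 8.70), Elane (9.42 and 9.32) and Prtn3 (8.28 and 8.23) were level, and Cxcr2 was under the filter level on every array. Lcn2, which LPS induces in macrophages too, was lower by 0.86. The part of neutrophils in the lower signals was not tested, and in bulk RNA fewer cells of a type and less RNA per cell cannot be told apart.

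Genes of oxygen sensing and glycolysis were modestly lower. Egln3, a prolyl hydroxylase that marks HIF alpha subunits for degradation and is itself a HIF target, read 9.40 in control, 8.73 under LPS, 7.84 under LPS/zVAD and 7.09 with both inhibitors, 3.12-fold lower than with LPS. Egln1, the main oxygen sensor of the family, read 10.21, 9.85, 8.47 and 8.84 and was 2.02-fold lower. Of the 24 listed hypoxia and glycolysis genes past the filter these were the 2 at 2-fold, beside 0.541% of all genes lower. At 1.5-fold 5 were lower and 0 higher, beside 2.75% and 0.738% of all genes.

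The list's median over the 25 measured was -0.36, between -0.43 and -0.30 under the other scalings. Bnip3, a mitophagy receptor, read 12.02 with LPS and 11.06 with both inhibitors, and Pdk1, which holds back pyruvate oxidation, 8.33 and 7.63. Abundant glycolytic enzymes were nearer to level, with Pgk1 at 13.32 and 13.21 and Aldoa at 13.21 and 13.19. Outside the list, and named after their values had been seen, Ak4 (11.42 and 10.31), the enolase gene Eno2 (8.98 and 7.90), the glycogen synthase gene Gys1 (9.99 and 9.05) and Kdm3a (9.14 and 8.40) were lower too. The HIF core motif ACGTG was in 15 of the 54 lower promoters (27.8%) and in 24.6% of those of genes past the filter.

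Several well-known LPS-induced cytokines lay within 1.5-fold of the LPS level. Il6 read 4.58 in control, 12.88 under LPS, 12.80 under LPS/zVAD and 12.76 with both inhibitors. Il12b, a subunit of IL-12 and IL-23, read 5.94, 12.17, 9.62 and 12.004, so the array with both inhibitors lay 0.17 under LPS while LPS/zVAD lay far lower. Tnf read 10.75, 12.58, 13.70 and 13.07. Nos2, the inducible nitric oxide synthase, was 0.32 lower with both inhibitors (13.03 and 12.71). Il10, which restrains macrophage activation, lay further off, lower by 0.61 (8.91 and 8.30).

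Of the 28 inflammatory cytokine and growth factor genes past the filter, 2 (Osm and Hbegf) were 2-fold higher and 2 (Il1f6 and Il1f9) lower. Over all genes 0.0738% were higher and 0.541% lower at 2-fold. At 1.5-fold there were 4 in each direction, beside 0.738% higher and 2.75% lower of all genes, and the median was -0.09. Of the higher ones, Lif read 5.51 with LPS and 6.32 with both inhibitors, both under the filter level. It passed the filter only through its LPS/zVAD signal of 10.19, so its difference is not a reading over that level. The ligand Ifnb1 was 2.04-fold higher, and of the 39 interferon stimulated genes 0 differed by 2-fold and 1, Slfn4, by 1.5-fold (lower by 0.82). These counts of 0 and 1 in 39 are near the shares of all genes. The median difference of the 39 was -0.03, between -0.10 and 0.03 under the other scalings, so its sign was not settled. Their median signal was already 12.82 under LPS, where the highest of all probes was 14.56. Under LPS/zVAD, with Ifnb1 5.14 above LPS on the log2 scale, it was 12.90. Whether these genes could have read higher was not tested. Ifit1 read 13.38 with LPS and 13.37 with both inhibitors and Mx1 12.81 and 12.65. Ifitm1, an antiviral membrane protein outside that list, was 2.44-fold lower at 12.66 and 11.37, and its other probe differed by -1.48 on the log2 scale.

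The measured genes of the death pathway that the inhibitors address were close to the LPS level. Ripk1, the gene of the kinase that Nec-1 inhibits, was not among the listed genes that were measured. Of 22 necroptosis and death receptor genes past the filter, 0 differed by 1.5-fold, beside 0.738% higher and 2.75% lower of all genes. A count of 0 in 22 is near those shares. The median of the 22 was -0.05. Ripk3 read 9.44 with LPS and 9.40 with both inhibitors, Mlkl 11.86 and 11.73, and Casp8 13.17 and 13.03. The furthest was Birc2, a ubiquitin ligase that restrains RIPK1, lower by 0.57. Among 21 inflammasome and pyroptosis genes, 0 differed by 2-fold, beside 0.0738% higher and 0.541% lower of all genes. At 1.5-fold 3 were lower, beside 2.75% of all genes: Mefv (pyrin) by 0.93, Naip5 by 0.72 and Nlrc4 by 0.65.

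NF-kB subunits and feedback inhibitors had 0 of 20 genes at 1.5-fold, with a median of -0.23 that lay between -0.31 and -0.16 under the other scalings. Over all genes 0.738% were higher and 2.75% lower at 1.5-fold. A count of 0 in this list, or in the lists that follow, is near those shares. Mitotic genes had 0 of 29 at 1.5-fold, but nearly all lay on one side: their median was 0.23, and only Mki67 (-0.08) and Tpx2 (-0.04) were under 0. Ccna2 (cyclin A2) read 12.20 in control, 10.35 under LPS, 10.30 under LPS/zVAD and 10.75 with both inhibitors. This median stayed positive under the other scalings, from 0.16 to 0.31. DNA replication genes had a median of -0.02 (0 of 35 at 1.5-fold), cytosolic ribosomal proteins -0.03 and oxidative phosphorylation -0.02, each with 0 at 1.5-fold.

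**Figure D5:**
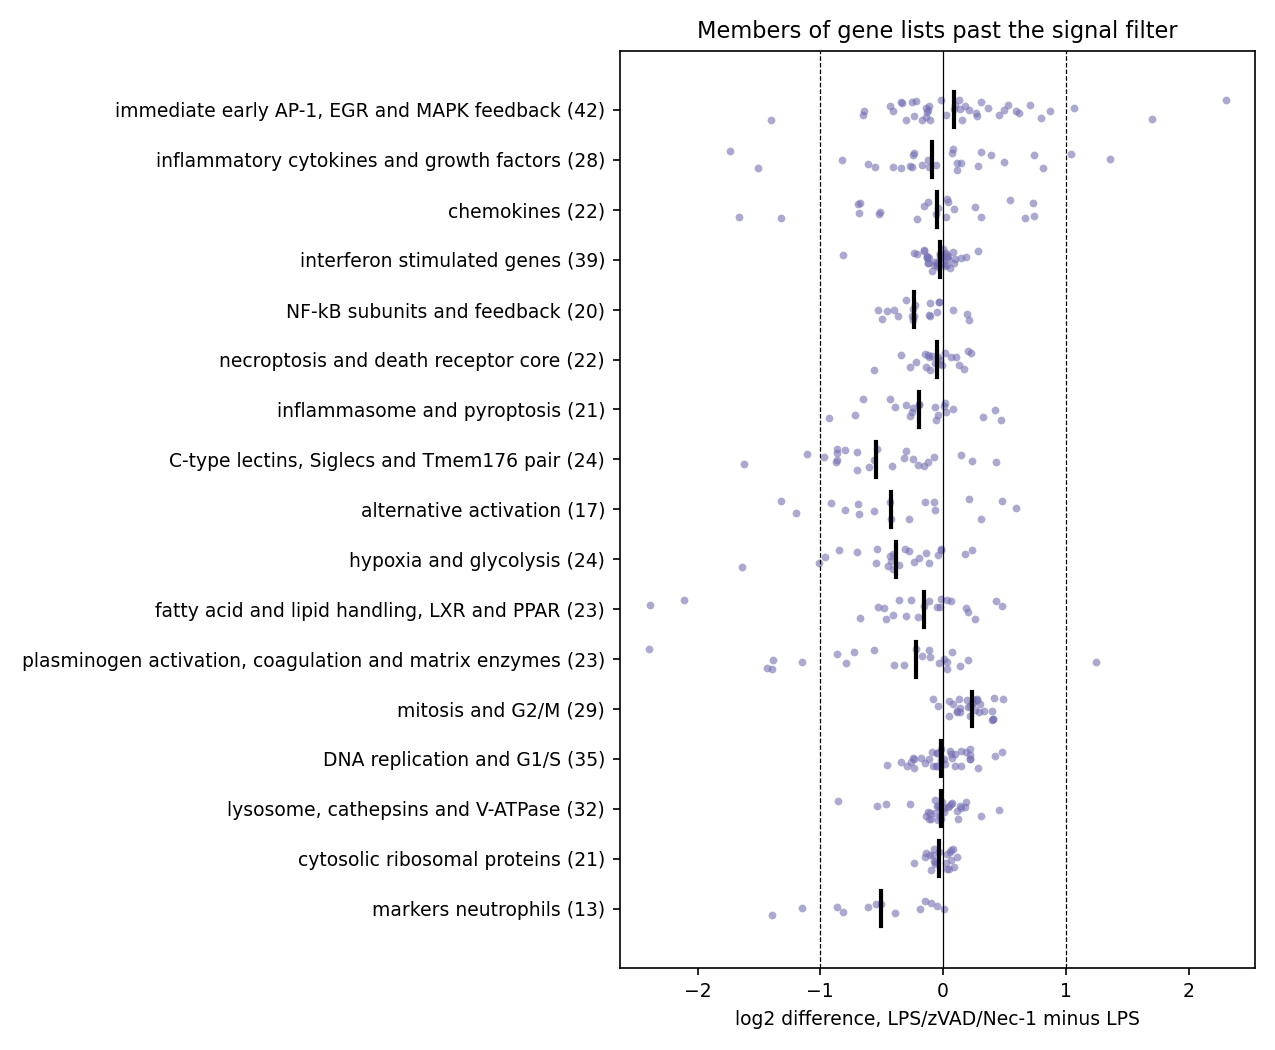
Log2 difference, LPS with both inhibitors minus LPS, of each member past the filter for 17 gene lists; black bars are medians over these members, numbers in parentheses count them, and dashed lines mark 2-fold. Lectins, hypoxia and neutrophil markers sit to the left of 0, mitotic genes just to its right, and interferon stimulated and ribosomal genes close to 0.

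Zinc finger genes named Zfp were the largest family examined, with 260 past the filter; 16 of them (6.15%) were lower at 1.5-fold and 0 higher, beside 2.75% and 0.738% of all genes. Zfp931 was the one at 2-fold: it read 6.61 in control, 6.90 under LPS, 6.49 under LPS/zVAD and 4.92 with both inhibitors, at least 1.34-fold lower counted from the filter level. These genes are dim, with a median LPS signal of 7.70, and their other members at 1.5-fold are short of the 2-fold mark. The family was put together after the values had been seen.

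The control and LPS/zVAD arrays, whose signals are not subtracted in the comparison, were used to sort the genes. This sorting is not independent of the calls, since both arrays entered the filter and the choice of probe. All 9 higher genes had their highest signal on the LPS/zVAD array, so the count for them below largely repeats that. LPS/zVAD was 2-fold or more higher than control for 1073 genes (8.79%) and lower for 1304 (10.7%). Of the 1073, 8 were among the genes higher with both inhibitors than with LPS, which is 0.746% of that set and 88.9% of the 9. A further 24 were among the lower ones, 2.24% of the set and 36.4% of the 66. Of the 1304, 0 were higher and 5 lower. Of the 9826 genes in neither set, 1, Plau, was higher and 37 were lower.

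For LPS/zVAD minus LPS, which shares the LPS array with the comparison described here, 396 genes (3.25%) were 2-fold or more higher and 438 (3.59%) lower. For Gem that difference was 5.13 without Nec-1 and 2.30 with it, and for Ifnb1 5.14 and 1.03. For Abca1 it was -2.10 and -2.11, for Ppbp -1.66 and -1.80, and for Serpinb2 -1.37 and -2.40. Arg2 and Errfi1, a feedback inhibitor of the EGF receptor, were a little above LPS without Nec-1 (0.19 and 0.16) and below it with Nec-1 (-1.16 and -1.18).

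Other genes at 2-fold lower came from several families. They included the integrin gene Itgb8 (10.26 with LPS and 8.74 with both inhibitors), the carbonic anhydrase gene Car2 (9.19 and 7.39), Shisa3 (9.63 and 7.83), the costimulatory ligand gene Tnfsf4 (at least 2.31-fold lower counted from the filter level) and the actin-bundling gene Fscn1 (9.87 and 8.77). Of the 66, 12 had a signal under the filter level with both inhibitors, and their ratios are bounds. Just outside the 2-fold mark lay the lipid phosphatase gene Plpp1, at -0.99 on the log2 scale.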

How the data were processed

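RNA of 4 macrophage samples was measured on Affymetrix arrays, 1 per condition. The deposited values are gene-level log2 signals of 35556 probes for which the submitters' processing notes name Affymetrix Expression Console; of its version, background correction and normalization nothing is given in the labels or files used here. The platform annotation gave 1 gene symbol to 21789 probes, several to 1621 and none to 12146; 21698 of the first were found in RefSeq. Differences of log2 signals were taken as deposited with pandas 2.3.3 in Python 3.11.15. A signal under log2 6.47 gives a bound counted from that level. Named genes were the 25 highest and 25 lowest at 2-fold or more (leaving out predicted genes and clones), up to 4 members of each of 46 lists with the largest difference, and a short list of key genes; other genes named are examples chosen after their values were seen. The members and lists were chosen with earlier results of these data known. Of 1096 listed members, 999 were measured. Alternatives were median centring, quantile and cyclic loess scaling (limma 3.58.1, R 4.3.3), the mean of a gene's probes, signals raised to the filter level, other filters and other fold sizes. The code for the calls was run on simulated arrays with little noise and planted differences well over the 2-fold mark. That run checks the code only and does not measure how reliable the calls on the real arrays are. Precision is limited by 1 array per condition.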

Additional observations from a re-analysis of the deposited data

How the results depend on the processing

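The counts of 9 higher and 66 lower genes depend most on the size asked for. At 1.5-fold they were 90 and 336, and at 3-fold 2 and 20. With the signal filter at the 75th percentile (log2 8.72) 9 genes were higher and 43 lower. Other settings stayed within 1.5 times of the main counts: median centring gave 6 and 88, quantile normalization 11 and 60, cyclic loess 10 and 77, the mean of a gene's probes 9 and 68, signals raised to the filter level 8 and 58, no filter 9 and 67, and a filter on the pair of arrays compared 9 and 66. The share of lower genes among those at 2-fold was 88.0%, and 84.5% to 93.6% under these scalings. None of the named genes at 2-fold changed direction under these settings. With median centring, 3 of the 9 higher genes came under 2-fold: Egr1 (0.99), Hbegf (0.97) and Ifnb1 (0.96). With quantile normalization 9 of the 66 lower genes came under it, among them Egln1 (-0.90), Eno2 (-0.99) and Fscn1 (-0.99). With signals raised to the filter level, 1 higher gene (Gprc5a) and 8 lower genes did. The 1 array per condition allows no leaving out of a replicate and no paired fit. No paired analysis was possible because the labels give 1 sample to each condition.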
